A study of Mus musculus with 4 samples.

Results

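Organoids grown from mouse small intestinal crypts were compared on day 1 of culture with the villus epithelium of the mouse small intestine by their microRNAs (miRNAs). The comparison rests on 2 of the 4 arrays of the study, the array labelled as organoid on day 1 and the array labelled as villus, which were chosen by these labels. Each had 1 array, both lay on 1 slide, and they were the 2 brighter arrays of the 4. The other arrays held crypt epithelium, on the same slide, and organoids on day 5, on another slide. Strain, age, sex, the number of animals and the culture medium are not given in the labels, and nothing in them says whether RNA was pooled. With 1 array a group there is no replicate, so no p-value was computed, and each difference describes these arrays. Of 1900 miRNA probes, 3 carried a bad-spot mark, and the other 1897 were used. The design text states the purpose as a measurement of miRNAs in crypt and villus epithelium and in the cultures made from crypts.

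MicroRNAs are short RNAs that pair with messenger RNAs through their seed, the bases near the 5′ end, and lower the output of those messages. The villus is the part of the intestinal lining that holds differentiated absorptive and secretory cells above a core of connective tissue, smooth muscle, vessels and immune cells. Crypts hold the stem and dividing cells, and organoids are made of epithelium that grows out of crypts in a gel without that core. miR-143 and miR-145 are known from smooth muscle and fibroblasts, miR-142 and miR-223 from white blood cells, miR-126 from vessel lining and miR-451a from red blood cells, while miR-192, miR-194, miR-215 and the miR-200 family are known from epithelium.

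Mature sequences of some miRNAs of the comparison are shown 5′ to 3′ with bases 2 to 8, the seed, in capitals, as RefSeq gives them for the mouse build GRCm38.p6. The first 6 were higher on the day 1 array and are shown for their runs of G. The next 4 mark cell types or the intestine, with miR-192-5p and miR-215-5p sharing 1 seed, and the last 3 stand for widely expressed families that were lower. Lower miRNAs rich in G and C, such as miR-6538, are not printed.
miR-6931-5p: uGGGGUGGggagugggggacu
miR-7036a-5p: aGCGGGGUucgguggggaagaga
miR-6769b-5p: cCUGGUGGguggggaagagc
miR-128-2-5p: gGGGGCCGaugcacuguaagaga
miR-8099: cCAAGGCGugggaaagguugu
miR-711: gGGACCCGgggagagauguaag
miR-451a: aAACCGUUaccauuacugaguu
miR-126a-3p: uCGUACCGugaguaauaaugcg
miR-215-5p: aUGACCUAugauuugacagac
miR-192-5p: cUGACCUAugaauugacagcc
let-7f-5p: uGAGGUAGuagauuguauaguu
miR-29a-3p: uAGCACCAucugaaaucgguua
miR-26a-5p: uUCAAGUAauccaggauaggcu

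By coordinates, miR-6931-5p lies at chr11:102999896-102999916 on the minus strand within the span of Dcakd, and miR-7036a-5p at chr5:137296661-137296683 on the minus strand within the span of Srrt. miR-6769b-5p lies at chr8:71631083-71631102 within the span of Unc13a, and miR-711 at chr9:108969970-108969991 within the span of the collagen gene Col7a1. miR-126a-3p lies at chr2:26591402-26591423 within the span of the vessel gene Egfl7, and miR-451a lies at chr11:78073186-78073207 outside the protein-coding genes of the table. The gene table gives spans only, so whether these are exons or introns was not read. miR-8099 has 2 loci with 1 mature sequence, on chromosomes 3 and 12, which the array cannot tell apart.

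Spot intensity is given on the linear scale of the scanner. A level is the log2 of the intensity after a background model and quantile normalization over the 4 arrays, and a difference is the day 1 level minus the villus level. The blank spots had a mean intensity of 100.6 on the villus array and 78.6 on the day 1 array, and a miRNA counted as detected above 107.9 and 82.3, respectively. The Spike Control spots of the villus array exceeded its blank spots by 28361, and those of the day 1 array by 16422. The villus array was therefore brighter, and raw intensities of the 2 arrays are to be read with this in mind. Detection reached 1506 miRNAs on the villus array and 1555 on the day 1 array, of which 1429 were detected on both, 126 on the day 1 array alone and 77 on the villus array alone. Each miRNA has 1 spot. Over 5 control probes with 8 spots each, the SD of a difference between single spots was 0.15 on the log2 scale, and the 2-fold threshold is 6.5 times this. That SD covers error between spots only, not error between animals, cultures or labellings. The control probes were chosen as bright, the dimmest having mean intensities of 914.6 on the villus and 544.3 on the day 1 array. The spread of spots near the detection limit was therefore not measured.

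Most miRNAs lay close together on the 2 arrays. Of the 1429 detected on both, 1166 (81.6%) differed by less than 0.5 on the log2 scale, with a median of 0.04 and an SD of 0.65. The day 1 array was at least 2-fold higher for 55 miRNAs (3.85%) and at least 2-fold lower for 81 (5.67%). Higher miRNAs were thus 40.4% of the calls, a share that was 28.4% when arrays were scaled by their medians, 57.0% when scaled by the Spike Controls, 51.4% in the deposited values and 95.4% when scaled by 8 epithelial miRNAs. These settings put the median of all miRNAs at 0.04, 0.29, 0.23 and 1.34, in this order. All 136 calls fell among the 714 miRNAs with a mean level above the median, and none among the 715 dimmer ones. The normalization draws dim values together, so the folds of dim miRNAs are understated. Beside this SD of 0.65, organoids on day 5 differed from villus with an SD of 0.56, and from organoids on day 1 with an SD of 0.28. Villus differed from crypt with an SD of 0.61, and organoids on day 1 and day 5 differed from crypt with 0.76 and 0.61.

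**Figure D1:**
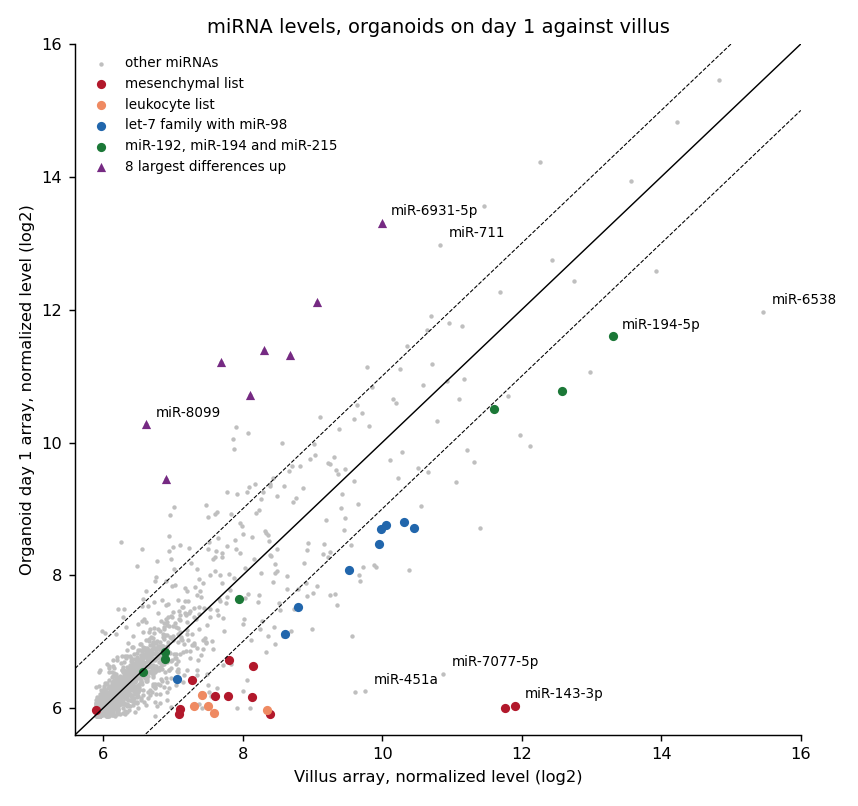
Normalized level (log2) of each miRNA detected on both arrays, villus on the horizontal and organoid day 1 on the vertical axis, 1 array each. The solid line marks equal levels and the dashed lines a 2-fold difference; miR-143-3p and miR-145a-5p lie 5.87 and 5.76 below equality, and miR-8099 lies 3.66 above it.

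The 2 largest differences down were in markers of the villus core. The intensity of miR-143-3p, which smooth muscle and fibroblasts make, was 11915 on the villus array and 91.7 on the day 1 array, close to the detection limit of 82.3. Its difference was -5.87, or 58.4-fold lower. miR-145a-5p, made from the same transcript, went from 10085 to 89.2, a difference of -5.76 or 54.3-fold. These pairs of values do not approach each other under any processing tried: the differences ranged from -9.09 to -4.88 for miR-143-3p and from -9.16 to -4.57 for miR-145a-5p. Their partner strands were lower by less, with -1.09 for miR-143-5p, while miR-145a-3p was detected on the villus array alone, at 196.5, and was at least 1.68-fold lower.

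The whole mesenchymal list of 15 probes followed these 2 members. All 15 were detected on the villus array and 12 on the day 1 array. Of those 12, 10 were at least 2-fold lower and 0 higher, against 5.67% lower among all miRNAs detected on both arrays. The list median was -1.40 over 15 probes, of which 3 were bounds that could only fall below 0. Over the 1429 miRNAs detected on both arrays, with no bounds, the median was 0.04. The summed intensity above the blank spots was 26152 on the villus array and 307 on the day 1 array. One probe serves miR-199a-3p together with miR-199b-3p, with a difference of -2.48; the differences of miR-125b-5p, miR-199a-5p and miR-214-3p of connective tissue were -1.96, -1.61 and -1.51. miR-1a-3p of muscle was at 431.8 on the villus array and not detected on the day 1 array, at least 3.15-fold lower, and miR-133a-3p of muscle had -1.12. The exceptions were miR-133b-3p at -0.85 and miR-206-3p of skeletal muscle, which was near the detection limit on both arrays and had 0.07. miR-100-5p and miR-125b-5p are also made in epithelium, so this list is not exclusive to mesenchymal cells.

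White blood cell and vessel markers were lower as well, and so was miR-451a of red blood cells. The 5 leukocyte probes detected on both arrays were all at least 2-fold lower. The list median was -1.37 over 6 probes, of which 1 was a bound that could only fall below 0. The summed intensity of the list above the blank spots was 1936 on the villus and 69 on the day 1 array. miR-142a-5p, made in blood cells, was at 783.7 and 88.1, a difference of -2.37. miR-142a-3p had -1.66, miR-146a-5p of inflammatory signalling -1.47, miR-150-5p of lymphocytes -1.27 and miR-223-3p of myeloid cells -1.22. The remaining probe, miR-155-5p, was detected on the villus array alone and only weakly.

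miR-126a-3p of vessel lining was at 698.5 on the villus array and 89.4 on the day 1 array, a difference of -2.09. miR-126a-5p was detected on the villus array only. The summed intensity of both above the blank spots was 665 and 13. miR-451a was at 2159.5 and 108.0, a difference of -3.48 or 11.2-fold, which made it the 1 red blood cell probe of 4 at least 2-fold lower, and the list's sum was 2257 and 85. miR-144-3p, encoded beside miR-451a, was detected on the villus array only. So was miR-144-5p, with a bound of -0.05, and the probe shared by miR-486a-5p and miR-486b-5p had -0.18. The median of the red blood cell list was -0.38. In RNA of a mixed tissue, fewer cells of a type and less RNA per cell cannot be told apart. With the background column of the scanner tables subtracted, the medians of the mesenchymal and leukocyte lists were -0.16 and -0.39. The endothelial median, there from miR-126a-3p alone, turned to 0.31, while miR-143-3p, miR-145a-5p and miR-451a kept differences past 2-fold. That column follows its own spot, and its median share of a bright spot was 56.4% on the villus and 43.6% on the day 1 array. Its subtraction thus takes unequal shares from the 2 arrays.

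miRNAs of the intestinal epithelium itself were bright on both arrays and moderately lower on the day 1 array. miR-194-5p was at 27593 on the villus array and 4855 on the day 1 array, a difference of -1.71. miR-215-5p was at 15097 and 3251, with -1.80, and miR-192-5p was at 8929 and 2477, with -1.09. miR-192-5p and miR-215-5p share the seed UGACCUA. The 4 remaining probes of this list, all partner strands, were at -0.30 to -0.02, and the median over 7 probes was -0.30. With scaling to 8 epithelial miRNAs, a setting that holds the average of those 8 equal by construction, this median turned to 0.62. miR-192-5p, miR-194-5p and miR-215-5p, which are among those 8, stayed below 0 there, at -0.04, -0.69 and -0.40. Both arrays therefore carried the labelled epithelial markers well above their detection limits.

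The miR-200 family, which keeps cells epithelial by repressing Zeb1 and Zeb2, was below 0 in all 9 members detected and reached 2-fold in 0 of them. miR-200b-3p was at 3670 and 1170, with a difference of -0.89, and miR-429-3p was at 1303 and 466, with -0.83. The 5 bright members, miR-200a-3p, miR-200b-3p, miR-200c-3p, miR-141-3p and miR-429-3p, lay between -0.89 and -0.58, and the 4 dim partner strands between -0.10 and -0.06. The family median was -0.58 and turned to 0.40 with scaling to 8 epithelial miRNAs, and miR-200b-3p and miR-429-3p turned to 0.82 and 0.66 with the background column subtracted. The miR-17 cluster with its paralogs, linked to proliferation, had a median of -0.41, which turned to 0.57 under that scaling. Of its 14 probes 13 were below 0 and 0 reached 2-fold. The lowest were miR-19b-3p at -0.91 and miR-106b-5p at -0.68, and the 6 members with the seed AAAGUGC lay between -0.68 and -0.45.

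**Figure D2:**
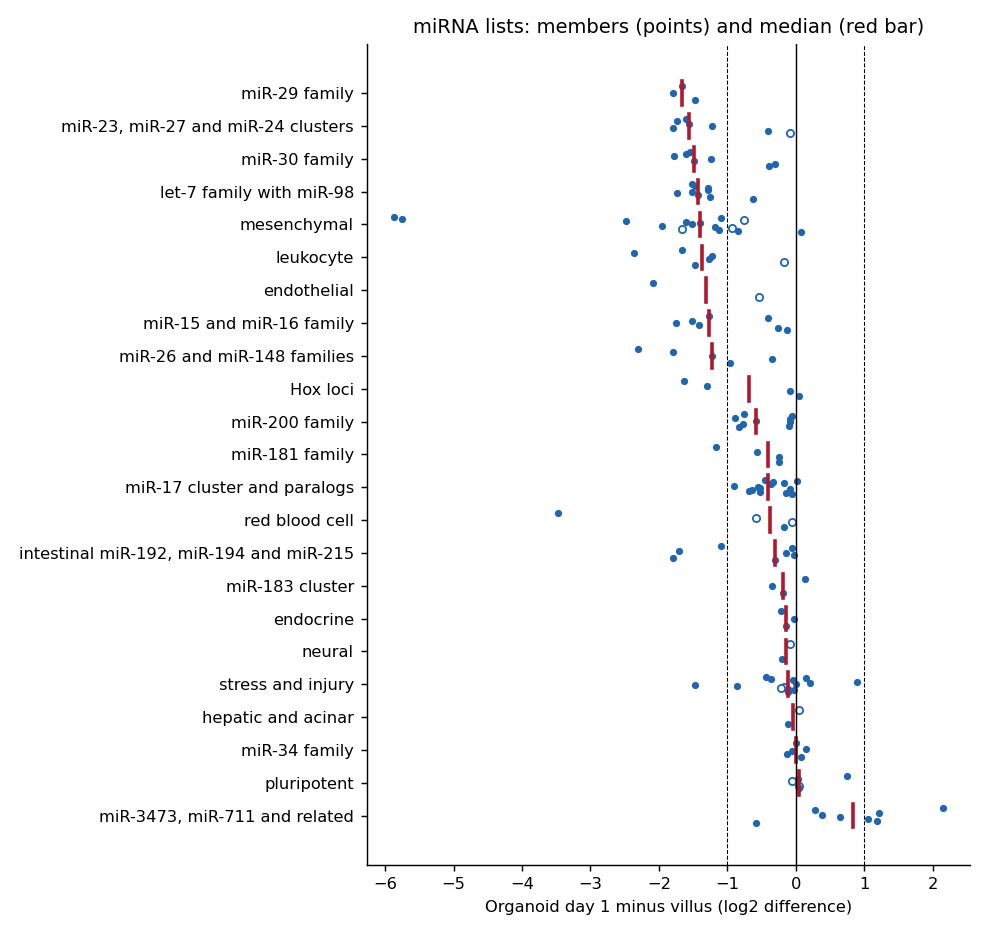
Difference in level (log2, organoid day 1 minus villus, 1 array each) of each member of the 23 lists, with filled points for members detected on both arrays, open points for members detected on 1 array (bounds) and red bars for list medians. The mesenchymal list reaches -5.87, the miR-29 family has the lowest median (-1.67), and the miR-3473 and miR-711 list has the highest (0.84); medians of the miR-200, miR-17, miR-183, miR-192, endocrine, stress, hepatic and miR-34 lists lie below 0 here and above 0 with scaling to 8 epithelial miRNAs, and those of the endothelial, Hox, miR-15, miR-181, miR-183, neural and miR-34 lists lie above 0 with the background column subtracted.

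Widely expressed families were also lower on the day 1 array. In the let-7 family with miR-98, which holds back growth genes such as Lin28 and Hmga2 in differentiated cells, 8 of 9 members were at least 2-fold lower and the median was -1.43. let-7f-5p was at 3452 and 601, a difference of -1.73, let-7a-5p had -1.52 and let-7i-5p -1.26. With the background column subtracted, let-7i-5p turned to 1.26 and let-7g-5p, at -1.43 as reported, to 1.68. The member that missed 2-fold was miR-98-5p at -0.62. The median was below 0 under all 10 alternatives, from -1.90 to -0.54, the latter with scaling to 8 epithelial miRNAs. These alternatives are not independent checks, because some change detection only and some differ from each other by nearly a constant shift. The near-identical let-7 sequences may cross-hybridize, so the members need not be separate measurements.

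All 3 members of the miR-29 family, which targets collagen messages, were at least 2-fold lower. miR-29a-3p was at 2080 and 379 (-1.67), miR-29b-3p at 1574 and 280 (-1.80) and miR-29c-3p at 783 and 168 (-1.48). The family median was -1.67 and stayed past 2-fold under all 10 alternatives. The miR-26 and miR-148 list had a median of -1.23 and did the same. Within it, miR-26a-5p was at 3412 and 394, a difference of -2.31, miR-26b-5p had -1.80 and miR-148a-3p -1.23.

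In the miR-30 family 5 of 7 members were at least 2-fold lower (median -1.49), with miR-30c-5p at -1.78 (0.63 with the background column subtracted) and miR-30b-5p at -1.61. In the clusters of miR-23 with miR-27 and miR-24, 5 of the 6 probes detected on both arrays were lower (median -1.56), with miR-24-3p at -1.79 and miR-23b-3p at -1.74. The miR-15 and miR-16 family, known to slow the cell cycle, had 4 of 7 lower (median -1.27). miR-16-5p had -1.51 and miR-195a-5p, which shares its seed AGCAGCA, had -1.75; with the background column subtracted, however, these 2 turned to 1.67 and 0.19 and the median to 0.15. With scaling to 8 epithelial miRNAs the medians of the let-7, miR-29, miR-26 and miR-148, miR-30, miR-23 and miR-15 lists were still below 0, at -0.54, -1.03, -1.21, -0.79, -0.88 and -0.57.

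Several of these families are made in mesenchymal as well as epithelial cells, and the mesenchymal markers were lower on the same array; the part of those cells in the family values was not tested. The miR-181 family had 1 of 4 lower, miR-181a-5p at -1.17 (0.14 with the background column subtracted). Of the 4 probes from Hox loci, miR-10a-5p at -1.63 and miR-10b-5p at -1.30 were at least 2-fold lower, and miR-196a-5p and miR-196b-5p were near their detection limits.

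In the other lists at most 1 member reached 2-fold, and their medians depended on the scaling. The miR-183 cluster, known from sensory cells, lay between -0.35 and 0.14, with a median of -0.19 that turned to 0.87 with scaling to 8 epithelial miRNAs and to 0.19 with the background column subtracted. Of 3 endocrine probes 0 reached 2-fold, with miR-375-3p, known from enteroendocrine and goblet cells, at 241.0 and 147.6 and a difference of -0.21. Its partner strand miR-375-5p is not in the list and was chosen after its value was seen. It was detected on both arrays and had 1.32, past 2-fold higher. The neural and the hepatic and acinar lists were near their detection limits on both arrays, with miR-128-3p at -0.20 and miR-217-5p at -0.12; with Spike Control scaling the neural median, -0.14 as reported, was -1.16. In the miR-34 family, targets of p53, 5 probes lay between -0.13 and 0.15. Among 9 probes of pluripotent cells, 3 were detected on both arrays, with miR-290a-5p at 0.75. In the stress and injury list, with 12 probes detected on both arrays, miR-146a-5p was the 1 member past 2-fold. miR-21a-5p of injury had -0.44. miR-210-3p, which low oxygen induces, was chosen after its values were seen: it was at 154.6 and 218.2 on the villus and day 1 arrays, a difference of 0.90. With scaling to 8 epithelial miRNAs, which put the median of all miRNAs at 1.34, the medians of the endocrine, stress and injury, hepatic and acinar, miR-34 and pluripotent lists were 0.81, 0.87, 0.85, 1.20 and 1.74, against -0.14, -0.12, -0.04, 0.00 and 0.04 as reported.

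The miRNAs higher on the day 1 array belonged to none of these cell type lists, though miR-375-5p is the partner strand of a member of the endocrine list. miR-8099 was at 195.1 on the villus array and 2044 on the day 1 array, a difference of 3.66 or 12.6-fold. miR-7036a-5p was at 488 and 3914 (3.52), miR-6931-5p at 2485 and 16920 (3.31) and miR-8119 at 775 and 4058 (3.09). These 4 were brighter on the day 1 array in raw intensity as well, although that array was the dimmer of the pair. miR-6769b-5p had 3.06, miR-6937-5p 2.64, miR-128-2-5p 2.61 and miR-5099 2.55. All 8 were at least 2-fold higher under each of 10 alternatives except miR-7036a-5p, which had 0.72 with the background column subtracted. Detection at 3 SD and no filter left these values unchanged. Little is known of the function of most of these miRNAs.

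The list of miR-3473, miR-711 and related miRNAs was assembled with earlier results of these arrays known, so its direction is no independent evidence. It had 4 of 8 members at least 2-fold higher, against 3.85% of all miRNAs, and a median of 0.84. miR-711 was at 4714 on the villus and 12805 on the day 1 array, a difference of 2.15. miR-3473b had 1.21, miR-3473f 1.19 and miR-3473e 1.05. miR-3473g went the other way, at -0.58.

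The other large differences down were in miRNAs with no cell type list. miR-7077-5p was at 4842 and 130.7, a difference of -4.35. miR-6538 was at 46366, the brightest miRNA spot of the villus array, and at 6127 on the day 1 array (-3.49). Its difference ranged from -3.51 to -1.10 over the alternatives, with -2.56 after quantile normalization over 2 arrays and -2.15 with Spike Control scaling. miR-6402 was at 2010 and 105.7 (-3.38), miR-494-3p at 8336 and 601 (-2.69) and miR-6999-5p at 1972 and 199.2 (-2.48). All 8 of the largest differences down were at least 2-fold lower under each of 10 alternatives, though detection at 3 SD and no filter left these values unchanged. Among miRNAs detected on the day 1 array alone, miR-1912-5p was at least 1.75-fold higher, miR-2139 1.44-fold, miR-764-3p 1.26-fold and miR-3471 1.24-fold. Among those detected on the villus array alone, miR-1a-3p and miR-145a-3p have been given, miR-99a-5p was at least 1.90-fold lower, and the bound for miR-144-3p was -0.58 on the log2 scale.

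**Figure D3:**
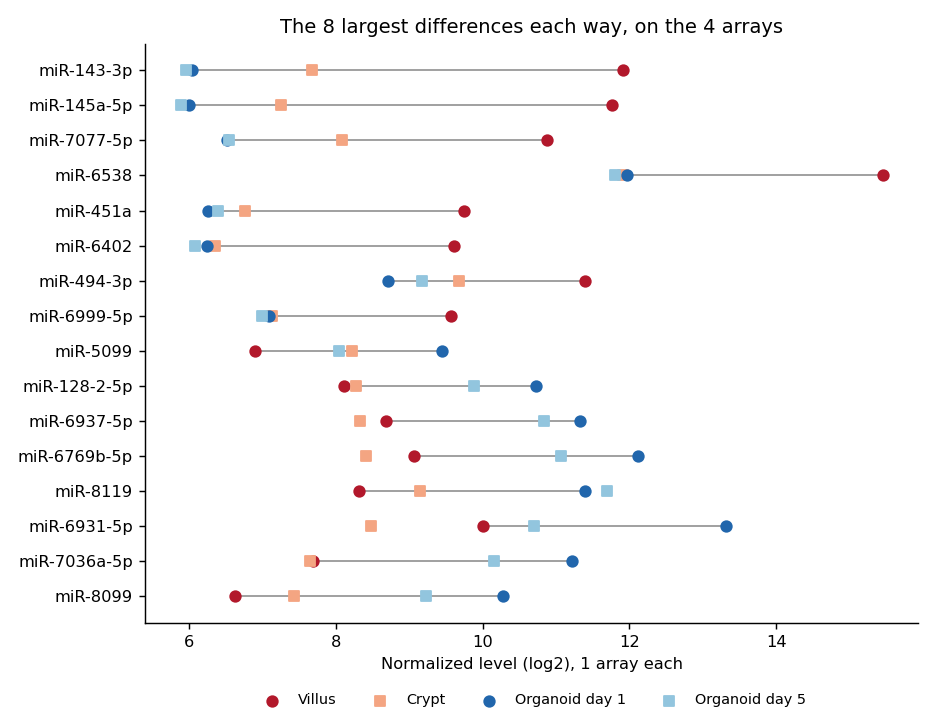
Normalized level (log2) of the 8 largest differences each way on the 4 arrays, 1 point per array, with a grey line from villus to organoid day 1. The day 5 points lie near the day 1 points for miR-143-3p, miR-145a-5p and miR-8119, whereas miR-6538 is high on the villus array and at 11.97, 11.91 and 11.80 on the day 1, crypt and day 5 arrays, and miR-5099 is high on the day 1 array alone.

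The higher and lower miRNAs differed in sequence and in kind. Of the 55 higher, 41 carry numbers of 1000 and above, given to miRNAs registered late, and 10 carry numbers below 500; of the 81 lower, 61 carry numbers below 500 and 19 carry 1000 and above. Among all 1429, 425 are below 500 and 883 are 1000 and above. The median content of G and C in the mature sequence was 63.6% for the 49 higher miRNAs with a RefSeq sequence and 47.6% for the 68 lower ones, against 54.5% for the 1221 detected on both arrays. The run GGG, searched in the mature strand after the sequences of the largest differences had been seen, was present in 45 of the 49 (91.8%), in 18 of the 68 (26.5%) and in 439 of the 1221 (36%). GGGG, whose matches also hold GGG, was present in 51%, 8.82% and 13.8%. The printed miR-6931-5p, miR-7036a-5p, miR-6769b-5p, miR-128-2-5p and miR-711 hold GGGG, and miR-8099 holds GGG alone. Some of the largest differences down were also rich in G and C. miR-6538 holds GGGG and has 94.7% of G and C, and miR-7077-5p and miR-6402 have 71.4% and 60.9%. By contrast, miR-451a, miR-494-3p and miR-6999-5p have 36.4%, 45.5% and 52.2%.

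The share of miRNAs at least 2-fold higher was 0% below 45% of G and C and 11.6% at 65% and above, while the share at least 2-fold lower went from 15.7% to 3.86%. Within the numbers below 500, 25% of 104 miRNAs with under 45% of G and C were lower and 0% of 23 with 65% and above. Within the numbers of 1000 and above, these shares were 0% of 50 and 4.85% of 165, and the shares higher were 0% and 12.7%. Across 1221 miRNAs the difference had a Pearson correlation of 0.29 and a Spearman correlation of 0.33 with the content of G and C. This is a description across miRNAs of 2 arrays, which share a labelling kit and a slide, and differences between their labellings were not measured. The level itself had a Spearman correlation of 0.39 with that content. Base composition therefore moved with the differences, and its part in them was not tested.

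**Figure D4:**
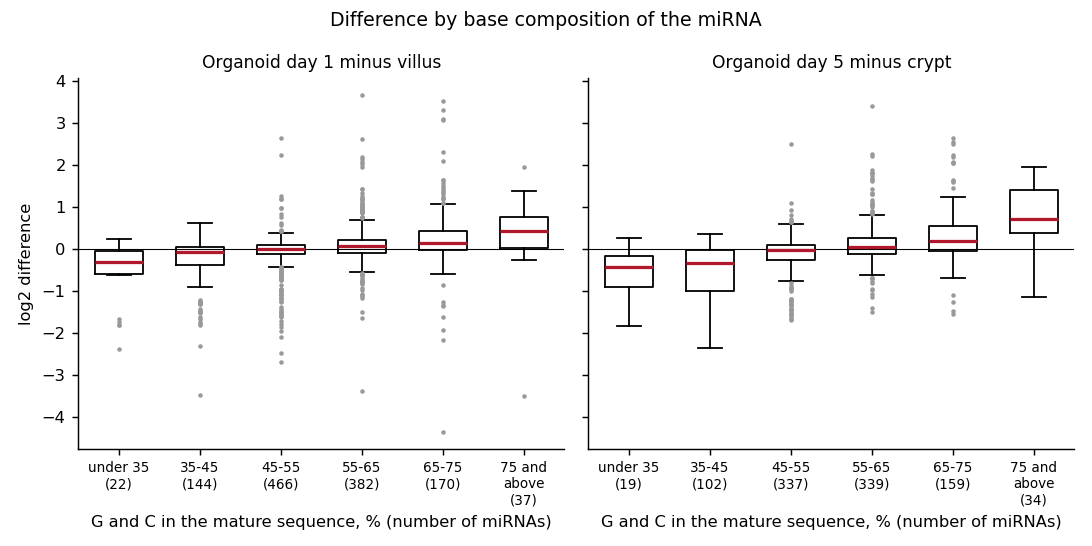
Difference in level (log2) by the share of G and C in the mature sequence, left for organoid day 1 minus villus and right for organoid day 5 minus crypt; boxes give quartiles, red bars medians, whiskers reach 1.5 times the box length and dots lie beyond. On the left the medians go from -0.31 in the lowest to 0.44 in the highest bin, and on the right from -0.43 to 0.72.

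The strands of a hairpin were compared next. Of 450 hairpins with both strands detected on both arrays, 28 had a 5p strand at least 2-fold higher. The 3p strand reached 2-fold higher in 0 of these 28 and was above 0 in 24, with a median of 0.11. The 3p strands of miR-7036a, miR-6769b, miR-6931 and miR-6937 had 0.24, 0.24, 0.19 and 0.05. Of the 23 hairpins with a lower 5p strand, 13 had a 3p strand below 0, and 2 had a 3p strand that was also at least 2-fold lower. One was miR-142a, with -2.37 and -1.66, and the other was miR-143, with -1.09 and -5.87. Among all 598 3p strands detected on both arrays, 1.17% were at least 2-fold higher and 4.01% lower, so calls in 3p strands were few in general. The normalization draws dim values together, so a dim partner strand would show a small difference in any case. The brightness of the partners was not compared. By strand, 31 of the 55 higher miRNAs were 5p, 7 were 3p and 17 carried no strand in the name. Of the 81 lower miRNAs, 45 were 5p, 24 were 3p and 12 carried no strand. All 1429 detected on both arrays held 589, 598 and 242 of these, so 5p outnumbered 3p among the calls in both directions.

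Organoids on day 5 and crypt epithelium, on arrays that this comparison does not use, gave a second pair of organoid and tissue. The 4 arrays were normalized together. The day 5 and crypt arrays lay on different slides, so slide and sample cannot be told apart in this second pair. Of 1163 miRNAs measured in day 5 minus crypt, 64 (5.5%) reached 2-fold upward and 71 (6.1%) downward. Of the 55 miRNAs higher on day 1 than in villus, 51 were above 0 in that pair and 30 were at least 2-fold higher, with a median of 1.04. Of the 81 lower ones, 76 were measured there, 67 were below 0 and 33 were at least 2-fold lower, with a median of -0.73. Among all 1148 detected on the 4 arrays, 590 were above 0 and 556 below 0 in day 5 minus crypt. The called miRNAs were all of above-median level in the first pair, so these shares are not those of miRNAs of like brightness. Across the 1148 miRNAs detected on all 4 arrays, the 2 differences had a Pearson correlation of 0.63 and a Spearman correlation of 0.53, which is a description across miRNAs. Base composition moved with both: its Pearson correlation with day 5 minus crypt was 0.47 over 990 miRNAs.

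Lists differed in how their values compared between the pairs. let-7f-5p was -1.73 in day 1 minus villus and -1.84 in day 5 minus crypt, miR-29a-3p -1.67 and -1.65, miR-26a-5p -2.31 and -2.32, and miR-194-5p -1.71 and -1.68. The miR-30 median was -1.49 and -1.25, whereas the median of miR-23 with miR-27 and miR-24 was -1.56 and -0.50, with miR-24-3p at -1.79 and -0.44, and that of the miR-15 and miR-16 family was -1.27 and -0.74. The mesenchymal median was -1.40 and -0.21, the leukocyte median -1.37 and -0.14, and the endothelial median -1.32 and -0.22. These medians cover different members in the 2 pairs, as several probes were detected on neither the day 5 nor the crypt array. In day 5 minus crypt the endothelial value is that of miR-126a-3p alone. For miR-143-3p and miR-145a-5p, not detected on the day 5 array, the values in that pair are bounds, at -1.71 and -1.29. On the crypt array the markers were themselves lower: miR-143-3p had a level of 7.67 there, 11.91 on the villus array and 6.04 on the day 1 array. Conversely the miR-200 median was -0.58 and -1.37, and the miR-17 median -0.41 and -1.18, each below 0 in both pairs, though the first value of each is above 0 with scaling to 8 epithelial miRNAs. Of the 8 largest differences up, 7 were at least 2-fold higher in both pairs, and miR-711 had 2.15 and 3.40. The exception, miR-5099, had 2.55 and -0.18. Chosen after their values were seen, miR-2137 had 1.96 in both pairs, miR-378a-3p had -1.24 and -1.61, and miR-103-3p had -1.03 and -1.01. These values show the second pair beside the first; whether the pairs differ cannot be tested with 1 array a group.

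**Figure D5:**
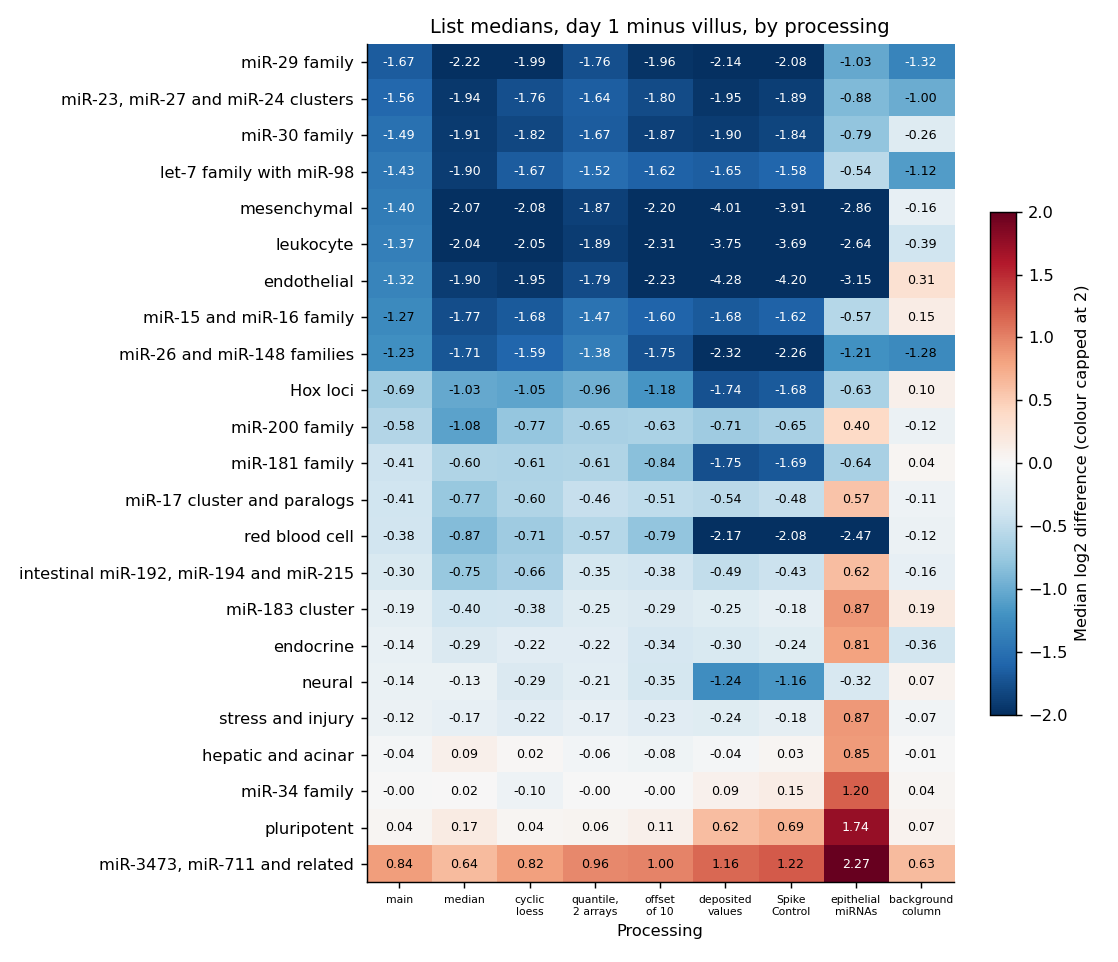
Median difference (log2, organoid day 1 minus villus) of each list under the reported processing and 8 alternatives, with the value printed in each cell. The miR-29 and the miR-26 and miR-148 medians are below -1 in every column, whereas those of the miR-200, miR-17 and miR-192 lists turn positive with scaling to 8 epithelial miRNAs (0.40, 0.57 and 0.62) and the endothelial median turns to 0.31 with the background column subtracted.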

How the data were processed

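Per the labels' protocols, a miRNeasy kit gave the total RNA and the miRCURY LNA kit labelled it with Cy5, on arrays of 1 colour. The deposited scanner tables give, per the file headers, the median spot intensity on a linear scale for 3200 spots, of which 896 are blank and 16 are Spike Control spots. The sources used here name no array maker, scanner or image program. A column named as background followed its own spot (correlation of log2 values 0.963 on the villus and 0.931 on the day 1 array). It was not used for the reported values, and its subtraction is given only as an alternative. The deposited table of processed values is an intensity on a linear scale with its zero at the mean of the blank spots.

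Spot intensities went through normexp (offset 50) and were logged (log2) and quantile normalized across the 4 arrays with limma 3.58.1 under R 4.3.3. A probe was detected when it exceeded the blank spots' mean by 2 of their SD, with 5% trimmed at each side. Where 1 array detected a miRNA, the difference is a bound against the higher of the dim level and the lowest detected level. A bound that did not favour the detecting array was left out, and the remaining bounds enter the list medians. A difference of 2-fold was the threshold, and no test was possible. Scripts were tested on simulated data. Precision is limited by 1 array a group and 1 spot a miRNA.

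The comparison and the 23 lists were chosen with earlier results of these data known. miRNAs were named as the 8 largest differences each way among those of above-median mean level, the 4 largest bounds in each direction, and list members past 2-fold, or a list's 2 largest where none passed; others are said to be chosen after their values were seen. Of 1897 miRNAs, 1612 matched a RefSeq sequence. The alternatives were the background column, an offset of 10, quantile normalization over 2 arrays, 4 other scalings, the deposited values, detection at 3 SD and no filter. Detection at 3 SD and no filter kept all 92 named miRNAs within 0.15 of the reported values. For miRNAs detected on both arrays, Spike Control scaling, epithelial scaling and the deposited values differ by nearly a constant shift.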

Additional observations from a re-analysis of the deposited data

Results flagged for a closer look

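Among miRNAs past 2-fold in day 1 minus villus, 13 had the opposite sign in day 5 minus crypt, and the 4 given here are those that are also named above or past 2-fold in both pairs; with 1 array a group these oppositions were not tested. miR-5621-5p was -1.61 in day 1 minus villus and 1.03 in day 5 minus crypt, the 1 miRNA past 2-fold in opposite directions. Its intensity was 7143 on the villus, 1265 on the day 1, 229 on the crypt and 774 on the day 5 array. miR-5099 was 2.55 and -0.18, with 1054 on the day 1 array and 244, 141 and 201 on the villus, crypt and day 5 arrays. miR-199b-5p was -1.40 and 0.20, and miR-133a-3p was -1.12 and 0.06; both were close to the detection limit on the crypt array, at 72.4 and 70.9.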

How the results depend on the processing

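The count of miRNAs at least 2-fold higher, 55 as reported, was 86 with an offset of 10, 221 with Spike Control scaling, 936 with scaling to 8 epithelial miRNAs and 199 in the deposited values. The count lower, 81 as reported, was 52 with the background column subtracted and 167, 45 and 188 with the last 3. The SD of differences, 0.65 as reported, was 0.84 with an offset of 10 and 1.17 with Spike Control scaling, with epithelial scaling and in the deposited values. The gap in median difference between 65% and above and under 45% of G and C was 0.259, and became 0.491, 0.914, 0.914 and 0.913 under the same 4. The number of miRNAs past 2-fold with the same sign in day 5 minus crypt, 118 as reported, was 73 with epithelial scaling. Of 69 named miRNAs past 2-fold, 44 stayed so with epithelial scaling and 35 after subtraction of the background column.

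With epithelial scaling 15 of 23 list medians had the reported sign. The other 8, of the miR-192, miR-17, miR-183, miR-200, endocrine, stress and injury, hepatic and acinar, and miR-34 lists, turned to 0.62, 0.57, 0.87, 0.40, 0.81, 0.87, 0.85 and 1.20. Of the named miRNAs 9 turned there, each under 2-fold as reported: miR-106b-5p to 0.04, miR-19b-3p and miR-200b-3p to 0.13, miR-217-5p to 0.19, miR-429-3p to 0.20, miR-96-5p to 0.41, miR-34c-3p to 0.57, miR-375-3p to 0.81 and miR-182-5p to 0.87. Subtraction of the background column turned 7 list medians, of the Hox, endothelial, miR-15, miR-181, miR-183, neural and miR-34 lists, to 0.10, 0.31, 0.15, 0.0375, 0.19, 0.067 and 0.045. It turned 19 named miRNAs, of which 12 were past 2-fold: let-7g-5p to 1.68, miR-16-5p to 1.67, let-7i-5p to 1.26, miR-30c-5p to 0.63, miR-125b-5p to 0.37, miR-126a-3p to 0.31, miR-199b-5p to 0.29, the miR-199a-3p and miR-199b-3p probe to 0.28, miR-195a-5p to 0.19, miR-100-5p to 0.18, and miR-10b-5p and miR-181a-5p to 0.14 each. The 7 under 2-fold were miR-200b-3p (0.82), miR-429-3p (0.66), miR-182-5p (0.47), miR-19b-3p (0.28), miR-128-3p (0.15), miR-34c-3p (0.09) and miR-290a-5p (-0.16). In 5 further settings only the miR-34 or hepatic and acinar medians, within 0.04 of 0 as reported, changed sign. The cause was not tested. Quantile normalization over 2 arrays gives no value for day 5 minus crypt. No paired analysis was possible because each group had 1 array, and no array could be left out. Levels near the blank spots limit what a fold of a dim miRNA can show.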
